A study of Mus musculus with 38 samples.

Results

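Interferon-stimulated genes were followed in brown adipose tissue of mice on low fat and high fat diets. The members were the 36 genes whose name in the scanner files equalled 1 of a list of 36 symbols, out of 29411 gene names on the array. Each member was read by the probe with the highest mean over the 38 arrays, and all 36 were among the 21856 genes tested, which were those well above background on at least 6 arrays. Weaned C57BL/6J mice aged 3 to 4 weeks were placed at random into 5 groups of 30 animals. LFC was the low fat control diet with 10% of calories from fat, and HFC was the high fat, high sucrose diet with 60%. HF5, HF20 and HF75 received the HFC diet together with KAL-1, an aqueous ethano-botanical formulation, at 5, 20 and 75 µg. LFC and HFC each had 10 arrays, at Day 6, Day 10, Day 14 and Weeks 0, 3, 6, 9, 12, 15 and 18, and each KAL-1 group had 6 arrays, at Weeks 3 to 18. Weeks were counted from Day 14, so that Day 14 and Week 0 are the same day on diet and Week 18 is day 140. The labels give no sex, and 1 array stands for each group and time point, and the arrays of a group at its several time points were taken as replicates. Whether an array holds RNA of 1 mouse or of a pool was not given in the sources used here.

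Interferons are secreted when a cell senses viral nucleic acid or when lymphocytes are activated. Type I interferons act through their receptor, the kinases Jak1 and Tyk2 and a transcription factor complex that includes Stat2 and Irf9 and binds the interferon-stimulated response element (ISRE) in the promoters of its target genes. Interferon gamma acts on genes with a GAS element and is the main inducer of the immunity-related GTPases (IRG) and guanylate-binding proteins (GBP). The resulting genes form a standing antiviral programme that is expressed at some level in most tissues, including adipocytes, their blood vessels and their resident immune cells.

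The members were grouped by role. Isg15 and Usp18 belong to the conjugation system of the ubiquitin-like protein ISG15. Ifit1, Ifit2 and Ifit3 encode RNA-binding inhibitors of translation. Oas2, Oas3, Oasl1 and Oasl2 belong to the oligoadenylate synthetase family, and Mx1 and Mx2 to the Mx family of dynamin-like GTPases. The 9 other effectors were Rsad2, Cmpk2, Bst2, Eif2ak2, Xaf1, Ifi44, Ifi35, Rtp4 and Parp14. The nucleic acid sensors were Ddx58, Ifih1, Dhx58 and Zbp1, and the transcription factors were Irf7, Irf1, Irf8, Irf9 and Stat2. The IRG and GBP GTPases, some of which attack the vacuoles of intracellular pathogens, were Igtp, Irgm1, Iigp1, Gbp2, Gbp3, Gbp6 and Mpa2l. Of the 36 probes used, 34 were matched by accession to a RefSeq gene, 32 of them with the same symbol. The probe named Gbp6 matched Gbp7 and the probe named Mpa2l matched Gbp6, so these members are called here by the names of the array.

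The sequences shown are the 250 bases before the start of 4 members that hold the ISRE core and of 1 that does not, chosen because these 5 genes lead or open the role groups described here. They are from RefSeq, assembly GRCm38.p6, written 5′ to 3′ on the strand of the gene, with the ISRE core (GAAA, any 2 bases, GAAA, on either strand) in capitals. Isg15 lies on the minus strand (chr4:156200819-156201068) and its overlapping matches start at positions -78, -72 and -66, counted from -1 at the last base before the start. Ifit1 lies on the plus strand (chr19:34640639-34640888) with matches at -104 and -85, Rsad2 on the minus strand (chr12:26456453-26456702) with 1 at -120, and Igtp on the plus strand (chr11:58199306-58199555) with 1 at -34. Irf7 lies on the minus strand (chr7:141266425-141266674) and holds no match.
Isg15: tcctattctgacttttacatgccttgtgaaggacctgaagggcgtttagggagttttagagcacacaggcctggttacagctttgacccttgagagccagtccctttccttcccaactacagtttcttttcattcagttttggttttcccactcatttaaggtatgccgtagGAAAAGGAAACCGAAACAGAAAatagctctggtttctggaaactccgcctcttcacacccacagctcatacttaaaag
Ifit1: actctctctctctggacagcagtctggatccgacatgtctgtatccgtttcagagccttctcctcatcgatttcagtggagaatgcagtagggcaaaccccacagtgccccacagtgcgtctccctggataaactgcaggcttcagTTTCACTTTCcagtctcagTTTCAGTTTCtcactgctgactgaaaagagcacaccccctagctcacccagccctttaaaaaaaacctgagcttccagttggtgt
Rsad2: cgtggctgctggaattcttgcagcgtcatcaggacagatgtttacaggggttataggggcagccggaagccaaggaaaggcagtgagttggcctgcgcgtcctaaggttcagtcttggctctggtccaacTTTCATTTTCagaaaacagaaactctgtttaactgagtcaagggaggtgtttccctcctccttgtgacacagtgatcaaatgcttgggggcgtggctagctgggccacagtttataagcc
Igtp: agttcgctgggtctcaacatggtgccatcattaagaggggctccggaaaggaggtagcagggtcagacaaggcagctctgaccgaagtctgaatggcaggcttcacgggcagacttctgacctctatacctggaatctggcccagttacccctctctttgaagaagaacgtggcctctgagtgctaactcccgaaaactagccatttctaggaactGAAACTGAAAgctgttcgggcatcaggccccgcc
Irf7: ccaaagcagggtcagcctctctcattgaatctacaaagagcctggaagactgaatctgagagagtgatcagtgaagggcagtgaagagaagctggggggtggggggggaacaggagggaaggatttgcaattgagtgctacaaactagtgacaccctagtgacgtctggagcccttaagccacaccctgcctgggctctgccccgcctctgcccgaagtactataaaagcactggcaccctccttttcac

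RefSeq promoter windows, from 250 bases before to 50 bases after the start, were found for 25 of the 36 members. The ISRE core was present in 14 of these 25 genes, against 3.44% of all 32851 windows of this length. The GAS core TTCNNNGAA, also searched on both strands, was present in 7 of the 30 windows, in 7 genes, against 8.3% of all windows. A match describes the letters of the window and was not tested as a binding site. In 11 members an ISRE core lay before the start (Isg15, Ifit1, Ifit3, Oas3, Rsad2, Bst2, Stat2, Igtp, Irgm1, Gbp2 and Gbp3), in 3 it lay only in the 50 bases after it (Eif2ak2, Ddx58 and Ifih1), and in 11 there was none.

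The arrays differed in brightness, unevenly between the groups. On 11 bright arrays the 75th percentile of the processed signal was above 600 intensity units, up to 1210,, and on the other 27, called dim here, it was 35.1 to 430. The bright arrays were 4 of 10 in LFC, 2 of 10 in HFC, 0 of 6 in HF5, 4 of 6 in HF20 and 1 of 6 in HF75. Values below are log2 signals relative to the 75th percentile of the same array, so that 0 is a signal equal to that percentile. The summed linear signal of 10 brown adipocyte markers, relative to the same percentile, was 133 to 1380 on 37 arrays and 9.34 on the HF75 array of Week 3, where Ucp1 was at -3.07 against 5.96 in HF75 at Week 6. All 10 were below their own means on that array, 8 of them still well above background, so that the markers of its labelled tissue were low there. The HFC array of Day 10 had no value for Ifit3 and Dhx58. The arrays were of whole tissue, in which fewer cells of a type and less RNA per cell cannot be told apart.

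Most members were measured well and varied together. Of the 36, 29 were well above background on all 38 arrays and 34 on 37 or 38. Oas3 was well above background on 16 arrays and Mx1 on 24, so that many of their values lie near the detection limit. At the upper end, Irf1, Igtp and Iigp1 were saturated on 1 array each. Each member ranged over 2.01 (Ifi35) to 8.28 (Mx1) log2 units across the arrays, with a median range of 4.44 against 3.81 for all genes tested. The Pearson correlation of each member with the median of the other members had a median of 0.84 over the 38 arrays, which share tissue and platform and include the bright arrays. It was highest for Oasl2 (0.94) and Gbp3 (0.94), lowest for Eif2ak2 (0.11), the RNA-activated kinase that halts translation, and above 0.7 for 28 members. Over the 27 dim arrays the median was 0.75, with Usp18 highest at 0.95 and Mx1 lowest at -0.07. These correlations are descriptions.

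**Figure D1:**
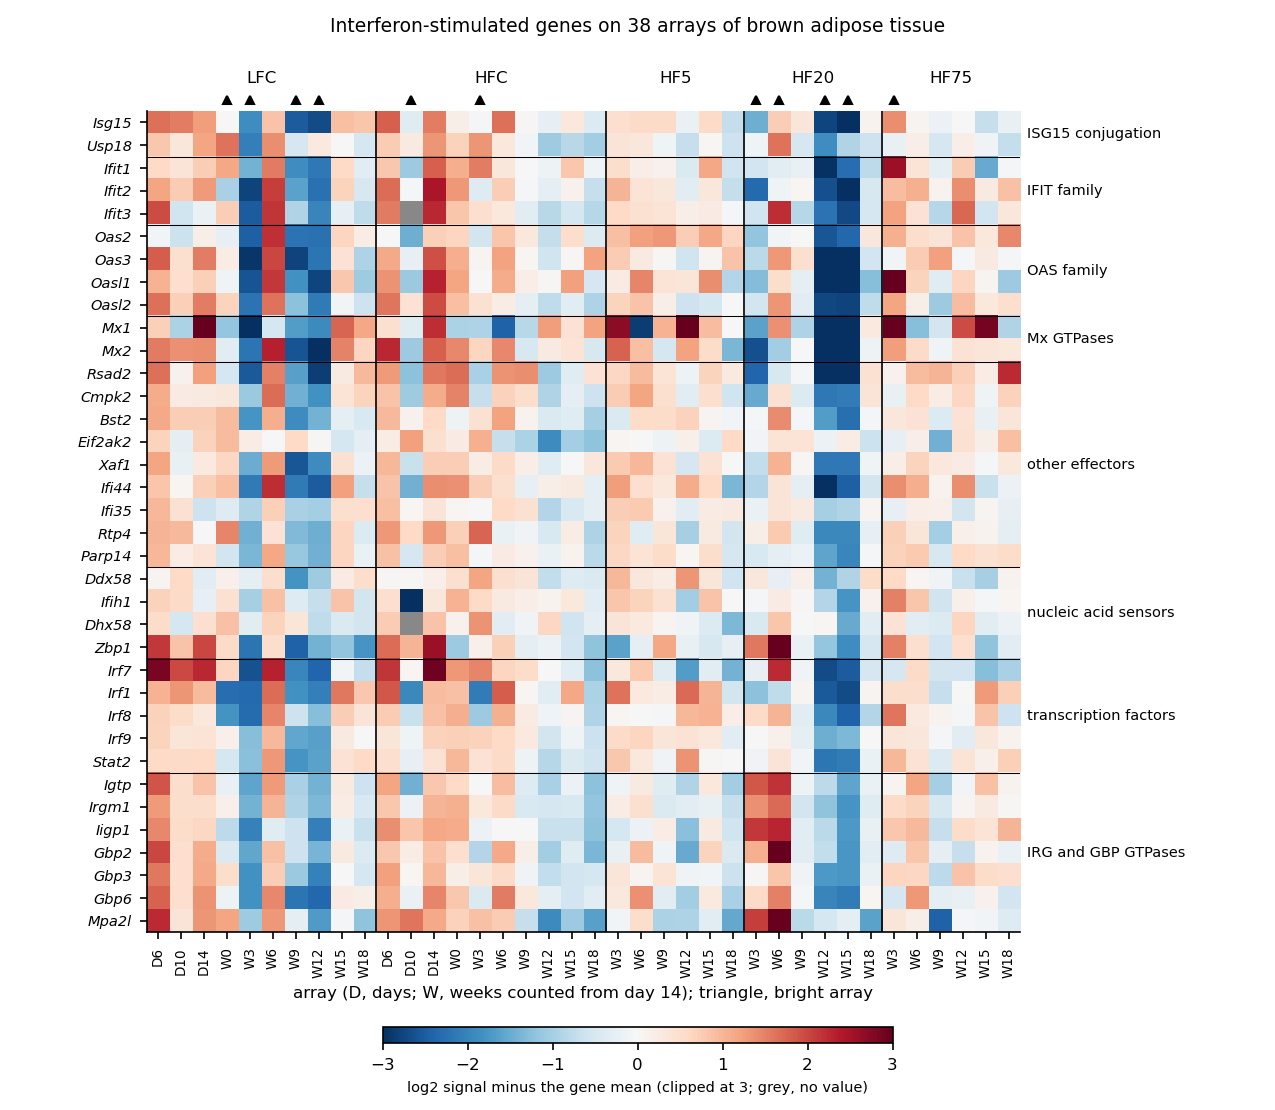
Each square is the log2 signal of 1 member on 1 array minus the mean of that member over the 38 arrays, with arrays ordered by group and time point and members by role. Triangles mark the 11 bright arrays. The LFC arrays of Weeks 3, 9 and 12 and the HF20 arrays of Weeks 12 and 15 stand out as low in nearly all members, and the HF20 arrays of Weeks 3 and 6 as high in several of the IRG and GBP GTPases.

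On 5 arrays nearly the whole group of genes was low together. The median deviation of the members from their own means was -1.81 in LFC at Week 3, -1.59 in LFC at Week 9, -1.85 in LFC at Week 12, -1.97 in HF20 at Week 12 and -2.10 in HF20 at Week 15. These 5 were all bright. The other 6 bright arrays had median deviations of -0.22 to 0.81, and the dim arrays of -0.63 to 1.29.

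Of the 36 members, 33 were below their own mean on all 5 of these arrays, as were 36.9% of all genes tested. On the HF20 array of Week 15, 34 members were among their own 5 lowest values of 38, against 27.2% of all genes, and on the LFC array of Week 3 this held for 29 members, against 15.4%. The corresponding counts were 22 members in LFC at Week 9 (14.8% of all genes), 30 in LFC at Week 12 (19.1%) and 29 in HF20 at Week 12 (28.2%). The lowest deviations were those of Mx1, Mx2, Oas3 and Rsad2. Mx1 deviated by -4.08 in LFC at Week 3 and by -4.29 in HF20 at Week 15, although its values there are close to background. Mx2 deviated by -3.58 in LFC and -4.57 in HF20 at Week 12. Rsad2, which encodes viperin, an enzyme that makes a chain-terminating nucleotide, deviated by -3.90 and -4.04 in HF20 at Weeks 12 and 15. Eif2ak2 was not low there, with deviations of 0.22, 0.61 and 0.23 in LFC at Week 3, LFC at Week 9 and HF20 at Week 15.

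Markers of some other cell types were also low on these 5 arrays, though not only there. The summed signal of the 4 endothelial markers Pecam1, Cdh5, Kdr and Tek, each well above background on all 38 arrays, was 15.4 to 28.2 on the 5 arrays, within 17.8 to 198 in LFC and 13.2 to 214 in HF20. It was as low, at 13.2 and 14.0, on the HF20 arrays of Weeks 3 and 6, where the members were not low as a group. The same held for LFC at Week 0 (19.6) and HFC at Week 3 (25.9). The summed signal of 7 neutrophil markers was 2.49 to 9.20 on the 5 arrays, with all 7 below their own means on each, within 2.49 to 198 in LFC and 3.17 to 297 in HF20. That of 5 erythroid markers was 134 to 208, also with all 5 below their means, with medians of 518 in LFC and 165 in HF20. That of 11 T and NK cell markers was 0.440 to 1.08, within 0.521 to 3.41 in LFC and 0.440 to 9.31 in HF20. That of 10 macrophage markers ran from 6.56 (HF20 at Week 15) to 26.4 (LFC at Week 9), the latter the highest sum in LFC. Neutrophil sums were as low, at 2.77, 2.86 and 3.17, in HFC at Day 10, LFC at Week 0 and HF20 at Week 6. T and NK sums were as low, at 0.535 and 0.375, in LFC at Week 0 and HF75 at Week 15. On those arrays the members were not low as a group. Of the arrays named in this paragraph, all but HF75 at Week 15 were bright. On the 5 arrays, median deviations were -1.0 to -2.22 for 4 plasmacytoid dendritic cell markers, some near background, and -0.62 to -1.88 for 4 B cell markers. In LFC at Week 0 these were -1.84 and -2.58. The 10 brown adipocyte markers went the other way on the 5 arrays, at 0.35 to 1.62. The part of these cells and of brightness in the deviations of the members was not tested.

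In the comparison of the high fat with the low fat diet, most members read slightly higher in HFC but none passed the test. The median difference of HFC minus LFC over the 36 members was 0.32 on the log2 scale, against 0.06 for all genes tested, and 30 members were above 0, against 55.3% of all genes. By limma with the time point as a block (n = 10 arrays in each group), 0 members had an adjusted p under 0.05, as did 0.0% of all genes, and 0 had an unadjusted p under 0.05, against 6.55% of all genes (4.74% higher and 1.81% lower in HFC). By role, the median differences were 0.18 for ISG15 conjugation, 0.58 for the IFIT family, 0.63 for the OAS family, 0.45 for the Mx GTPases, 0.27 for the other effectors, 0.21 for the sensors, 0.31 for the transcription factors and 0.14 for the IRG and GBP GTPases. The smallest unadjusted p belonged to Oasl1, an inhibitory relative of the synthetases. Its lowest, median and highest values were -3.69, -0.74 and 1.19 in LFC and -2.04, -0.27 and 1.38 in HFC. The groups overlapped and HFC was the higher at 8 of 10 time points. The difference was 0.90 ± 0.42 (SE), with unadjusted p = 0.0558 and adjusted p = 0.663 in limma. Iigp1, a vacuole-attacking IRG protein, had a mean of 4.19 in HFC and 3.61 in LFC, a difference of 0.58 ± 0.28 (SE) with an adjusted p of 0.663 in limma.

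The difference turned with the arrays compared. At Week 3, where the LFC and HFC arrays were both bright, 31 of 36 members were at least 2-fold higher in HFC, as were 5.37% of all genes, and all 36 were above 0. At Weeks 9 and 12, a dim HFC array stood against a bright LFC array, and 22 and 24 members were at least 2-fold higher, against 30.7% and 40.7% of all genes. At the 5 time points with 2 dim arrays (Days 6 and 14, Weeks 6, 15 and 18), the median over members was -0.28, against 0.01 for all genes. Of the 36, 32 were below 0. At Week 6 no member was 2-fold higher, against 6.63% of all genes, and 10 were at least 2-fold lower, as were 6.99%.

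Isg15 shows the pattern in single values. In LFC it was 2.32 at Week 6, 2.35 at Week 15 and 2.29 at Week 18 on dim arrays, and -0.41, -1.04 and -1.24 on the bright arrays of Weeks 3, 9 and 12. In HFC it lay between 1.04 and 3.11 at all 6 of these weeks. The dim LFC values lay within the HFC range and the bright ones below all of it. Irf7, the factor that amplifies type I interferon production, was -3.37, -2.71 and -3.14 on the same bright LFC arrays and 1.55, -0.83 and -1.46 on the dim ones, against -1.99 to 0.71 in HFC at these weeks.

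**Figure D2:**
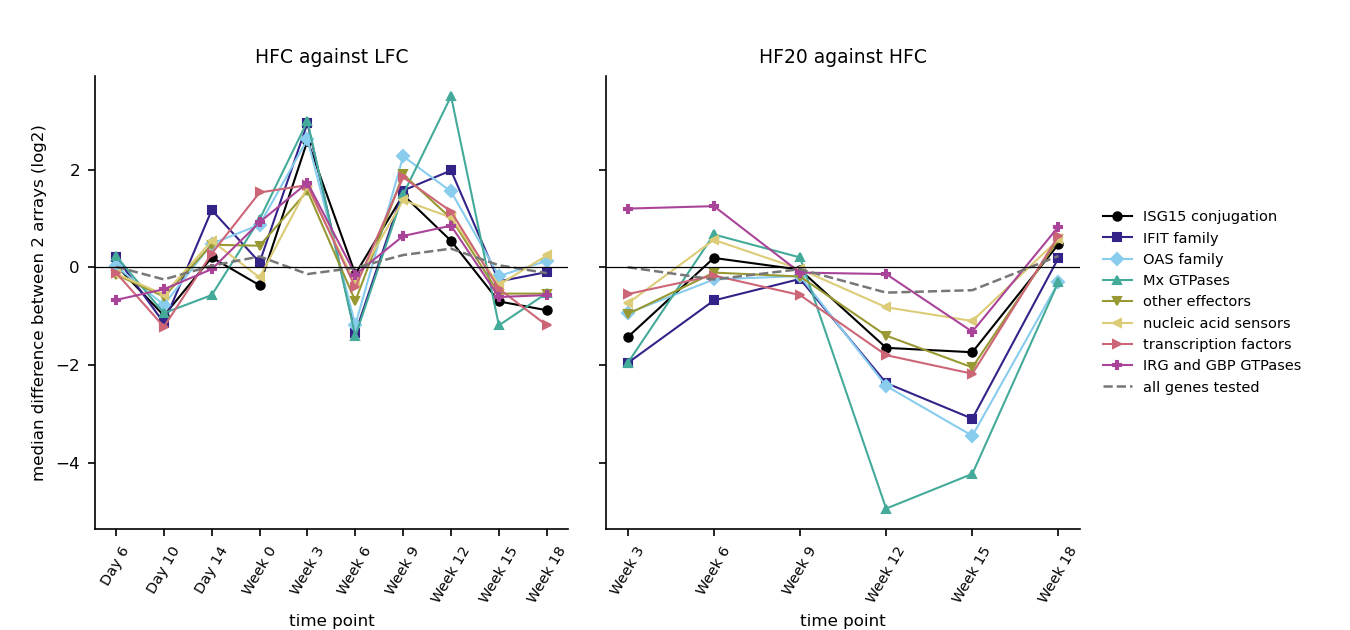
Points are medians over the members of each role of the log2 difference between the 2 arrays of a time point, HFC minus LFC on the left and HF20 minus HFC on the right, with the median of all genes tested as a dashed line. The role groups moved up together at Week 3 in the left panel and down together at Week 15 in the right panel. At Week 12 in the right panel the IRG and GBP GTPases (-0.14) stayed above the median of all genes (-0.52), while the other roles lay below it. The IRG and GBP GTPases also ran above the other roles at Weeks 3 and 6 of HF20.

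In the fit of the 30 arrays of Weeks 3 to 18, which holds all 5 groups, the median difference of HFC minus LFC was 0.56 and 34 members were above 0, against 54.0% of all genes. Of the 36, 0 passed the adjusted threshold, against 0.00915% of all genes, and only Oas3 had an unadjusted p under 0.05 (0.0499), against 14.4% of all genes (10.4% higher and 4.01% lower). Oas3, the synthetase for long double-stranded RNA, was well above background on 5 of 10 LFC and 7 of 10 HFC arrays. The members with the next smallest p were Eif2ak2, lower in HFC with a difference of -0.79, and Xaf1, with 0.89. On the dim arrays alone the median turned to -0.54, with 33 members below 0, and with the brightness class in the model it was 0.12. Zbp1, a sensor of Z-form nucleic acids that starts inflammatory cell death, was higher in HFC than in LFC at 6 of 6 weeks, by 1.18 ± 0.59 (SE), with an adjusted p of 0.353 in limma.

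With KAL-1 at 20 µg, no member passed the adjusted threshold against the HFC diet alone, and 29 of 36 members had a difference below 0. The same 6 HFC arrays served as control for all 3 doses, so the 3 comparisons share them. The median difference of HF20 minus HFC was -0.56, against -0.20 for all genes, and 7 members had an unadjusted p under 0.05 for a lower value, against 19.9% of all genes, about the same share. Adjusted, 0 of 36 members and 0.0% of all genes passed in limma. The role medians were -0.70 for ISG15 conjugation, -1.34 for the IFIT family, -1.24 for the OAS family, -1.76 for the Mx GTPases, -0.66 for the other effectors, -0.34 for the sensors and -0.55 for the transcription factors, against 0.52 for the IRG and GBP GTPases, of which Gbp3 (-0.31) and Gbp6 (-0.39) were below 0.

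Ifit1, whose protein binds RNA caps that lack methylation, was among the 3 members with the smallest p. In HF20 it was -0.37, -0.15, -0.02, -2.76, -2.09 and -0.59 at Weeks 3 to 18, and in HFC 1.74, 0.53, 0.22, 0.05, 1.01 and 0.08. Every HF20 value lay below every HFC value. The difference was -1.6 ± 0.59 (SE), with p = 0.0119 and adjusted p = 0.118 in limma. Mx2 was -1.64, -0.05, 1.0, -3.59, -2.31 and 0.83 in HF20 and 1.62, 2.42, 0.50, 1.25, 1.40 and 0.51 in HFC. The groups overlapped, since HF20 was the higher at Weeks 9 and 18, the weeks with 2 dim arrays. Rsad2 differed by -1.85 ± 0.58 (SE, adjusted p = 0.118 in limma) and Oasl1 by -1.91 ± 0.73 (SE, adjusted p = 0.120 in limma), the latter lower at 6 of 6 weeks.

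Several IRG and GBP GTPases read high on the first 2 HF20 arrays, where their median difference from HFC was 1.2 and 1.25, against -0.11, -0.14 and -1.32 at Weeks 9, 12 and 15 and 0.83 at Week 18. Igtp, an IRG protein that guards host membranes, was 6.02 and 6.33 in HF20 at Weeks 3 and 6, against 4.17 and 5.08 in HFC, and 2.57 to 3.99 in HF20 later. Iigp1 was 6.14 and 6.31 against 3.85 and 4.00, and 2.29 to 3.80 in HF20 later. Mpa2l, a GBP family member, was 2.31 and 3.81 against 1.11 and 0.99, and -1.37 to -0.04 in HF20 later. These 2 arrays held the highest HF20 values of all 3 genes. Igtp and Iigp1 were each saturated on 1 of the 38 arrays, and both had their highest value of all in HF20 at Week 6. The size of their highest values is therefore uncertain. Over the 6 weeks Mpa2l differed by 1.03 ± 0.49 (SE), with p = 0.0483 and adjusted p = 0.148 in limma. The summed signal of the 11 T and NK cell markers was 4.12 and 9.31 on these 2 HF20 arrays against 0.650 and 1.16 on the HFC arrays, and ranged over 0.440 to 9.31 in HF20 and 0.650 to 9.21 in HFC. The 10 macrophage markers summed to 24.5 and 34.4 there, against 11.4 and 7.84 on the HFC arrays of the same weeks, and ranged over 6.56 to 34.4 in HF20 and 7.73 to 24.0 in HFC, so that both sums were above every HFC array. The part of these cells was not tested.

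The difference varied between weeks. HF20 had 30 members at least 2-fold lower than HFC at Week 15 (40.2% of all genes) and 22 at Week 12 (43.5%), weeks with a bright HF20 and a dim HFC array. At Weeks 9 and 18, with 2 dim arrays, 1 member was 2-fold lower at each. At Week 6, again with a bright HF20 and a dim HFC array, 13 members were 2-fold higher (22.2% of all genes) and 3 lower (31.3%). At Week 3, with both arrays bright, 7 were higher (13.3%) and 14 lower (2.93%). The median difference was 0.18 on the dim arrays alone, with 30 of 36 members above 0, and -0.04 with the brightness class in the model. Brightness and the dose of 20 µg are only partly separable here, since 4 of the 6 HF20 arrays are bright.

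The lowest and the highest dose differed less from HFC. HF5 minus HFC had a median of 0.20 over the members, with 29 above 0 (51.0% of all genes), 0 past the adjusted threshold (0.0% of all genes) and 1 with an unadjusted p under 0.05 (5.45% of all genes, 3.41% higher and 2.05% lower). That member was Eif2ak2, at -0.51, -0.56, -0.72, -0.41, -0.97 and 0.04 in HF5 against 0.50, -1.26, -1.51, -2.44, -1.57 and -1.77 in HFC at Weeks 3 to 18. HF5 was the higher at every week but the first, and the difference was 0.82 ± 0.39 (SE, p = 0.0467, adjusted p = 0.822 in limma). Oas2 was higher in HF5 at 6 of 6 weeks, by 0.99 ± 0.56 (SE, adjusted p = 0.822 in limma).

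HF75 minus HFC had a median of 0.29, with 28 members above 0 (47.6% of all genes), and 0 had an adjusted p (0.0% of all genes) or an unadjusted p (9.14%, with 4.86% higher and 4.28% lower) under 0.05 in limma. At Weeks 12 and 18, both with dim arrays, 13 and 17 members were at least 2-fold higher in HF75, against 10.9% and 24.4% of all genes. Ifit2 was higher in HF75 at 6 of 6 weeks, by 0.85 ± 0.59 (SE, adjusted p = 0.610 in limma), and Eif2ak2 by 0.79 ± 0.39 (SE, adjusted p = 0.554). The HF75 array of Week 3, with its low brown adipocyte markers and the highest summed signal of the 10 macrophage markers on any array (35.4), held the highest HF75 values of Isg15 (2.84), Oasl1 (2.78) and Ifit1 (2.77), and the part of these cells was not tested. Without it the median difference was 0.15 and Ifit2 differed by 0.70.

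Against LFC, the same 6 LFC arrays served for all 3 doses. HF75 minus LFC had a median of 0.79 over the members, with all 36 above 0 (58.3% of all genes). Of these, 11 had an unadjusted p under 0.05 for a higher value, against 9.33% of all genes, and 0 passed the adjusted threshold, against 0.0275%. HF5 minus LFC had a median of 0.77, with 34 above 0 (58.1% of all genes), 4 with an unadjusted p under 0.05 (13.3% of all genes, 3.95% lower) and 0 adjusted (0.00915%). HF20 minus LFC had a median of -0.10, with 15 above 0 (42.9% of all genes), 2 with an unadjusted p under 0.05 (4.95% of all genes, 2.24% higher and 2.71% lower) and 0 adjusted (0.0%).

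Iigp1 had the smallest p in the comparison of HF75 with LFC. It was 4.82, 5.00, 3.33, 4.57, 4.42 and 5.03 in HF75 at Weeks 3 to 18 and 1.98, 3.65, 3.39, 1.97, 3.82 and 3.36 in LFC. HF75 was the higher at every week but Week 9, and the groups overlapped through that 1 HF75 value. The difference was 1.5 ± 0.50 (SE, p = 0.00667, adjusted p = 0.216 in limma). Gbp3 differed by 1.19 ± 0.41 (SE) and Rsad2 by 1.59 ± 0.58 (SE), each with an adjusted p of 0.216. Oas2 led the comparison of HF5 with LFC at 1.63 ± 0.56 (SE, p = 0.00808, adjusted p = 0.367), followed by Irf9, the DNA-binding subunit of the complex with Stat2, at 0.88 ± 0.35, and Xaf1, which promotes apoptosis, at 1.09 ± 0.44. Zbp1 led that of HF20 with LFC at 1.64 ± 0.59 (SE, p = 0.0108, adjusted p = 0.842). On the dim arrays alone all 3 medians were below 0, at -0.23 for HF75, -0.33 for HF5 and -0.41 for HF20. Without the HF75 array of Week 3 the median of HF75 minus LFC was 0.72, and 5 members had an unadjusted p under 0.05 in place of 11. The share of all genes in that fit is not given. Iigp1, Gbp3 and Rsad2 differed there by 1.49, 1.16 and 1.57 (adjusted p = 0.369 each in limma).

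Among the 3 doses of KAL-1, 3 members differed past the adjusted threshold by the moderated F test of limma (n = 6 arrays in each group), against 13.4% of all genes, and 12 had an unadjusted p under 0.05, against 37.3%, so that both shares were smaller among the members. For all 3 the middle dose was the lowest. Rsad2 ranged over 2.07 to 3.19 in HF5 (median 2.74), -1.81 to 2.69 in HF20 (median 0.80) and 2.36 to 4.48 in HF75 (median 3.06). HF20 overlapped the other groups only through its higher values, and its lowest were those of Weeks 12 and 15. HF20 minus HF5 was -2.19, HF75 minus HF20 was 2.61 and HF75 minus HF5 was 0.42 (adjusted p = 0.0342 in the F test).

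Ifit2, whose protein binds AU-rich viral RNA, ranged over -1.94 to -0.19 in HF5 (median -0.87), -4.23 to -1.16 in HF20 (median -2.63) and -1.11 to 0.17 in HF75 (median -0.32). HF20 lay wholly below HF75. The differences were -1.61 for HF20 minus HF5, 2.19 for HF75 minus HF20 and 0.59 for HF75 minus HF5 (adjusted p = 0.0405 in limma). Oas2 ranged over 1.36 to 2.02 in HF5 (median 1.75), -1.84 to 1.06 in HF20 (median 0.09) and 1.03 to 2.17 in HF75 (median 1.42). HF20 lay wholly below HF5 and met HF75 only at its highest value, that of Week 18. The differences were -1.97, 1.74 and -0.23 in the same order (adjusted p = 0.0412 in limma).

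These calls depended on the arrays, the probes and the model. With the mean of all probes of a gene, Ifit2 (adjusted p = 0.0746) and Oas2 (adjusted p = 0.0835) did not pass in limma, while Rsad2 did (adjusted p = 0.038). Without the HF75 array of Week 3, 0 members passed, nor did any on the dim arrays alone or with brightness class as a term of the fit. None passed without any one of Weeks 3, 6, 12 and 15. Nor did any with normexp background correction (adjusted p = 0.127 for each of the 3), or without the time point as a block (adjusted p = 0.0536 for Rsad2, 0.0554 for Ifit2 and 0.0615 for Oas2).

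**Figure D3:**
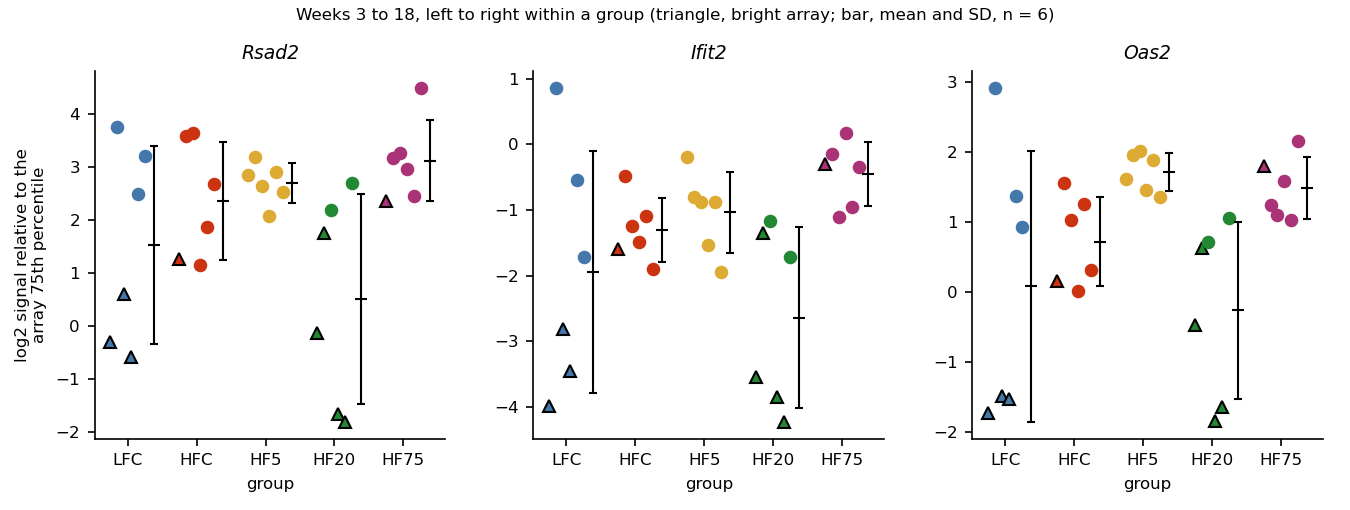
Each point is the log2 signal, relative to the 75th percentile of the array, of Rsad2, Ifit2 or Oas2 on 1 array of Weeks 3 to 18, triangles being bright arrays and the bar giving mean and SD (n = 6). In each panel the lowest HF20 points are bright arrays, and the 3 bright LFC arrays lie below the 3 dim ones.

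Most members read lower at the later time points of the diets. In the fit of the 20 LFC and HFC arrays on days, with the diet in the model, 33 members had a negative change per week, with a median of -0.06 log2 units. Of the 36, 3 fell past the adjusted threshold, against 1.63% of all genes in either direction and 0.54% for a fall, and 15 had an unadjusted p under 0.05 for a fall, against 6.42%. No member had one for a rise, against 14.9% of all genes.

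Mpa2l fell by 0.15 ± 0.03 (SE) log2 units per week (p = 1.23e-05, adjusted p = 0.0278 in limma). In LFC it was 2.48, 0.61, 1.55, 1.42, -0.84, 1.52, -0.04, -1.46, 0.20 and -0.98 from Day 6 to Week 18, and in HFC 1.56, 1.84, 1.36, 0.92, 1.11, 0.99, -0.46, -1.68, -0.86 and -1.41. In HFC all 6 values up to Week 6 lay above all 4 later ones.

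Eif2ak2 fell by 0.08 ± 0.02 (SE) per week (adjusted p = 0.0475 in limma). In HFC it was -0.33, 0.68, -0.09, -0.31, 0.50, -1.26, -1.51, -2.44, -1.57 and -1.77 in time order, with the first 5 values above the last 5, and in LFC it stayed between -1.08 and 0.39. Zbp1 fell by 0.14 ± 0.04 (SE) per week, with an adjusted p of 0.04997, just under the threshold. It was 1.72, 0.44, 1.59 and 0.17 on the first 4 LFC arrays and -2.59, 0.13, -2.84, -1.83, -1.6 and -2.17 on the last 6. In LFC all of the last 6 lay below all of the first 4. In HFC it was 1.27, 0.62, 2.18 and -1.49 and then -0.25, 0.31, -0.70, -0.57, -0.99 and -1.61, so that early and late values overlapped through Week 0.

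Irf7 changed by -0.15 ± 0.04 (SE) per week (adjusted p = 0.0681 in limma). It was 2.08, 1.22, 1.5 and -0.11 on the first 4 LFC arrays and 1.38, -0.70, 2.16 and 0.55 on the first 4 HFC arrays, and -1.46 and -1.99 at Week 18.

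**Figure D4:**
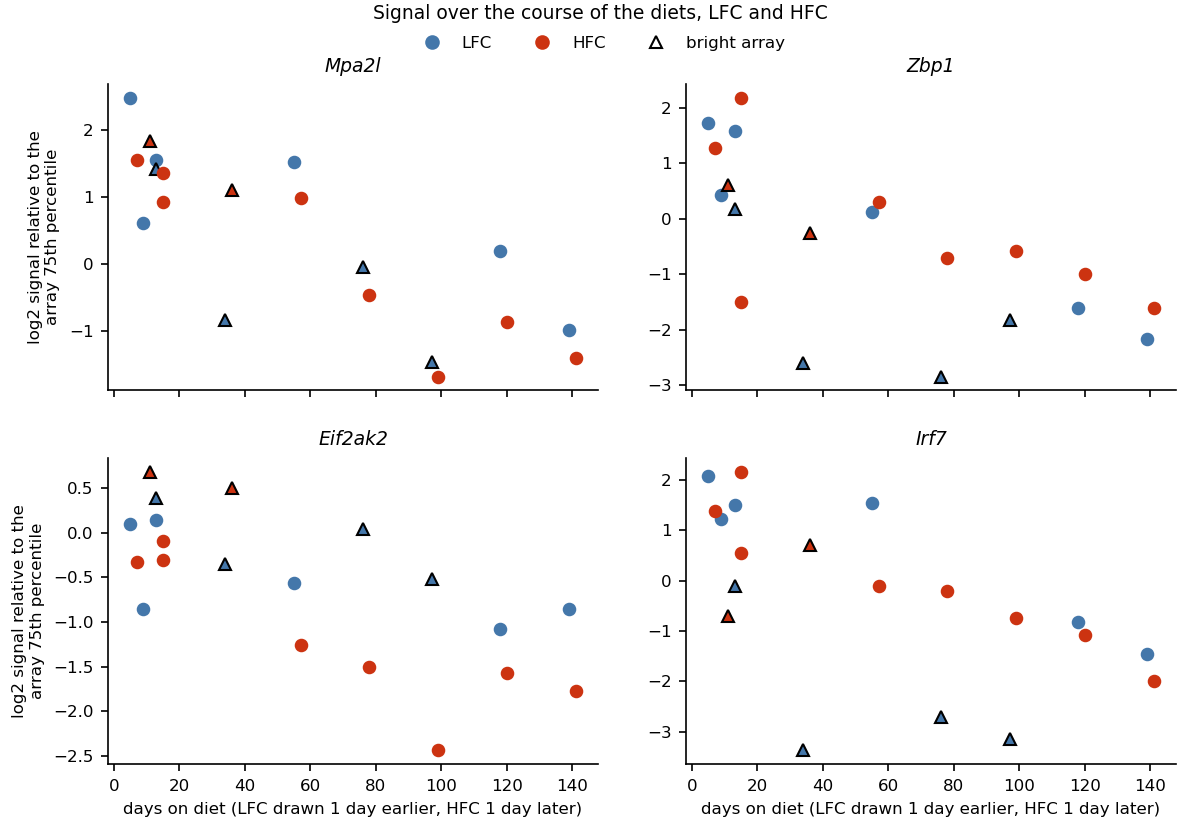
Points are the log2 signals of Mpa2l, Zbp1, Eif2ak2 and Irf7 on the LFC and HFC arrays against days on diet, with bright arrays as outlined triangles. The dim arrays fall from left to right in all 4 panels, and the bright LFC arrays of Weeks 3, 9 and 12 lie below all others for Irf7 but not for Eif2ak2.

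The decline was about as large without the bright arrays. On the 14 dim LFC and HFC arrays alone, 35 members had a negative change and 14 passed the adjusted threshold, all for a fall, against 3.79% of all genes in either direction. With the brightness class in the model 17 passed, against 7.93% of all genes, and 13 passed in both. The dim arrays still differed in brightness. In time order, their 75th percentiles were 189, 215, 367, 178, 197 and 148 in LFC. In HFC they were 167, 358, 430, 163, 48.3, 120, 239 and 49.8. Neither fit holds this remaining difference, and its part in the decline was not tested. Irf7 changed most on the dim arrays, at -0.17 ± 0.02 (SE) per week (adjusted p = 0.00877 in limma), from 2.08, 1.22, 1.5 and 1.55 in LFC at Days 6, 10 and 14 and Week 6 to -0.83 and -1.46 at Weeks 15 and 18. All 7 IRG and GBP GTPases passed on the dim arrays, with Iigp1 at -0.11 per week (adjusted p = 0.0125), Gbp3 at -0.08 (adjusted p = 0.0247) and Igtp at -0.09 (adjusted p = 0.0293). So did Usp18, which removes ISG15 and damps interferon signalling (-0.09, adjusted p = 0.0278), Oasl2 (-0.12, adjusted p = 0.0158), Ifit2 (-0.10, adjusted p = 0.0381), Bst2, the tetherin that holds virions at the cell surface (-0.07, adjusted p = 0.0404), Eif2ak2 (-0.07, adjusted p = 0.0453) and Zbp1 (-0.15, adjusted p = 0.0297).

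The calls in the fit of all 20 arrays depended on the arrays and the model. Without the HFC array of Day 10, 0 members passed, with Mpa2l at -0.15 per week (adjusted p = 0.058 in limma), and 0 passed without Week 0 or without Week 18. With scan day as a random block 0 passed, with adjusted p = 0.0904 for Mpa2l, 0.143 for Eif2ak2 and 0.132 for Zbp1, and 0 with the mean of all probes or with the percentile over probes detected on all arrays. Fitted by diet, HFC had 3 members past the threshold, against 10.7% of all genes, namely Mpa2l (-0.17 per week, adjusted p = 0.0111), Eif2ak2 (-0.12, adjusted p = 0.0112) and Iigp1 (-0.12, adjusted p = 0.0431), and LFC had 0, against 0.0% of all genes, with 6 at an unadjusted p under 0.05, all for a fall, against 1.79% of all genes. The product of diet and day, which tests whether the 2 slopes differ, passed for 0 members and 0.0% of all genes, and 0 members had an unadjusted p under 0.05, against 15.3%. Days on diet and the age of the mice moved together and cannot be told apart. Each scan day held arrays of a single time point, so that scan day and time point are only partly separable. The order of the scan days was not that of the days on diet, and Day 14 and Week 0 were scanned on different days.

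**Figure D5:**
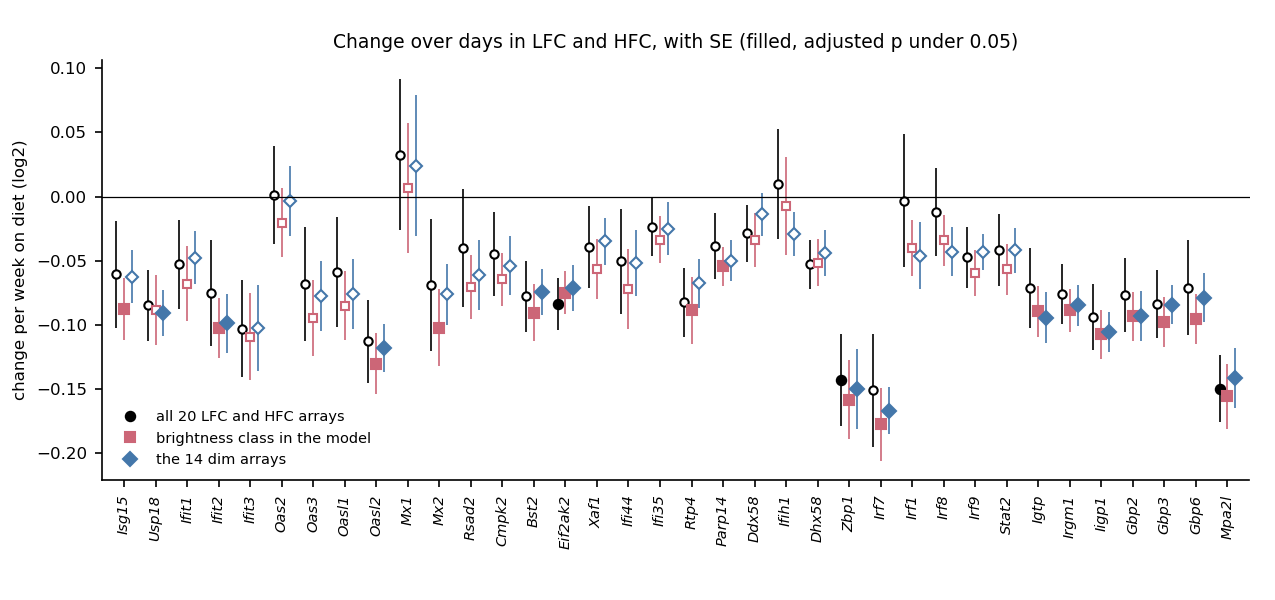
Each point is the change per week on diet of 1 member in log2 units with its SE, for all 20 LFC and HFC arrays, with brightness class as a term of the fit, and for the 14 dim arrays, filled where the adjusted p is under 0.05. Nearly all points lie below 0 and the 3 settings of a member differ little, while 3, 17 and 14 members pass.

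The other genes of the pathway gave few calls. Of 8 interferon ligand genes, 7 were on the array and 5 were tested, and 0 passed in any comparison, with at most 3 at an unadjusted p under 0.05 (HF20 against HFC, all lower). Ifng, interferon gamma, was higher in HFC than in LFC by 1.85 ± 0.58 (SE, p = 0.008, adjusted p = 0.663 in limma). Ifnb1, interferon beta, read lower in HF20 than in HFC (adjusted p = 0.123 in limma). Ifnb1 was well above background on 19 of 38 arrays only, and on 1 of 6 in HF20, so that no size is given. Its highest value, 2.75, was on the HF75 array of Week 3. Of 9 receptors and kinases, only Il28ra, the receptor chain for interferon lambda, passed, in HF75 against LFC (adjusted p = 0.0316 in limma). It was well above background on only 2 of 10 LFC and 2 of 6 HF75 arrays, so that no size is given. Irf2, a repressor of interferon-induced transcription, differed among the doses (adjusted p = 0.0348 in the F test of limma). The 10 adaptor and induction genes and the 7 inhibitors had 0 calls in limma, with at most 7 and 3 at an unadjusted p under 0.05, both among the doses. These counts are to be read beside the shares of all genes given above for the same comparisons.

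A list of 44 other interferon-stimulated genes, 42 of them tested, gave medians of the same sign as the members. Their median difference was 0.26 for HFC minus LFC, -0.37 for HF20 minus HFC and 0.85 for HF75 minus LFC, where 42 of 42 were above 0. Of the 42, 4 differed among the doses (Slfn5, Ifi203, Sp100 and Tor3a), a smaller share than the 13.4% of all genes, and 1 fell over days, against 0.54% of all genes, Lgals3bp, which encodes a secreted galectin ligand, by 0.08 per week (adjusted p = 0.0476).

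By ISRE core in the promoter, the median deviation on the 5 low arrays was -1.80 for the 11 members with the core before the start and -2.21 for the 11 without it, and the median change per week was -0.07 and -0.05. The median difference of HF20 minus HFC was -0.49 and -0.82 in the same order.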

How the data were processed

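RNA from brown adipose tissue carried the Cy3 dye (Quick-Amp labelling) on 1-colour Agilent arrays, per the labels. The deposited scanner files hold spot intensity values from Feature Extraction 10.5.1.1, per the file headers (9.1 in the submitters' processing notes), and the processed signal in them was corrected for background by the authors but not scaled between arrays. The deposited series table holds the authors' own log2 differences from LFC at each time point and was not used here. No sample column was left unmapped (0). The study's methods describe the liver arrays of the same feeding experiment, and the counting of weeks was taken from them.

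From the intensity values, log2 of the processed signal minus the 75th percentile of the array was computed, each gene name was represented by its brightest probe on average, and a gene was tested if it was well above background on 6 or more arrays. The linear models were fitted with limma 3.58.1 under R 4.3.3 (package data.table, version 1.17.8). Tests were two-sided, the Benjamini-Hochberg adjustment ran over all 21856 genes, and the threshold was 0.05. Group comparisons had the time point as a block, with 20 arrays for HFC against LFC and the 30 arrays from Weeks 3 to 18 for the doses. The trend model held diet and days. The block rests on the shared time point of the labels. The deviations of LFC and HFC arrays of the same time point correlated above 0.1 at 7 of 10 time points, and those of HFC with HF5, HF20 and HF75 at 5, 3 and 4 of 6, down to -0.351 for HF20. The 4 Week 9 files of HFC, HF5, HF20 and HF75 hold rounded values, as if saved again. Tables and figures were made with Python 3.11.15, numpy 2.4.6, pandas 2.3.3 and matplotlib 3.10.9, and the fits were tested on simulated data. Samples were grouped from their labels. Alternatives were other scalings, background corrections, filters, probe rules, blocks, weights, omitted time points and, chosen after seeing the data, the 27 dim arrays alone and the fits without the HF75 Week 3 or the HFC Day 10 array.

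The members chosen for fuller report were those past the threshold in the main fits, the 3 with the smallest p in each comparison and the first of each role. Not all of their values are printed. The members and lists were chosen with earlier results of these data known. The p-values measure the spread between single arrays of different time points. The number of arrays and the signal over background limit the precision. A further gene of the pathway is not reported here.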

Additional observations from a re-analysis of the deposited data

Results flagged for a closer look

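For the 20 members chosen for fuller report, 100 groups of 4 to 10 arrays were examined. Of these, 6 held an array far from the rest of its group, where about 1 in 20 groups is expected to by chance. Isg15 was 2.84 and Oasl1 was 2.78 in HF75 at Week 3, against 0.77 to 1.53 and -2.03 to -0.26 on the other 5 HF75 arrays. This is the array with the low brown adipocyte markers. In HF75 at Week 9, Iigp1 was 3.33, Gbp3 was 2.61 and Mpa2l was -2.19, against 4.42 to 5.03, 3.88 to 4.25 and -0.16 to 0.59 on the other 5, so that 3 IRG and GBP GTPases were low on 1 array. The 75th percentile of that array was 35.1 intensity units, the lowest of the 38, and its file is among the 4 of Week 9 with rounded values. Irf9 was 0.97 in HF5 at Week 18, against 1.61 to 1.94 on the other 5 HF5 arrays.

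The differences among the 3 doses passed for Rsad2 (adjusted p = 0.0342), Ifit2 (adjusted p = 0.0405) and Oas2 (adjusted p = 0.0412) in the moderated F test of limma, and did not pass without the HF75 array of Week 3. The part of that array, of brightness and of the dose in these differences was not tested further.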

How the results depend on the processing

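Of 1113 values recomputed under alternatives, 989 moved by less than the limit set for their kind. For the 166 median differences the limit was the spread between replicates. All 166 stayed within it, including those that turned sign on the dim arrays. That limit is too wide to detect a turned sign, so the count does not show that the medians are stable. On the dim arrays the median over members turned sign for HFC against LFC (-0.28, and -0.54 at Weeks 3 to 18), HF20 against HFC (0.18), HF5 against LFC (-0.33) and HF75 against LFC (-0.23). For the differences among the doses (3 members), 0 passed with normexp background correction, with no filter, with the brightness class in the model, on the 27 dim arrays and without the HF75 Week 3 array. There were 5 with a floor at the lowest signal well above background, 5 with genes well above background on every array, 5 with array weights and 12 with the slide as a random block. Without the time point as a block 0 passed, and no other call changed without that block. For the trend (3 members), 0 passed with the percentile over probes well above background everywhere, with the mean of all probes, with scan day as a random block and without the HFC Day 10 array. There was 1 each with no filter, with every array well above background, with log2 of days and with Day 14 and Week 0 averaged. There were 10 with normexp, 14 with array weights, 14 on the dim arrays and 17 with the brightness class. Shares of all genes are given above only for the trend on the dim arrays and with the brightness class. The other counts, and those with a time point left out below, therefore describe how the calls moved and not the members in particular.

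Leaving out 1 time point at a time gave 0 to 2 members for HF20 against HFC (2 without Week 3), 0 to 7 for the doses (6 without Week 9, 7 without Week 18) and 0 to 5 for the trend (5 without Week 3). Differences of at least 2-fold numbered 134 for HFC against LFC (213 at 1.5-fold, 78 at 3-fold), 38 for HF5 (86 and 11), 100 for HF20 (60 at 3-fold) and 61 for HF75 (111 and 22) against HFC. Among single genes, signs turned on the dim arrays for Mx2 in HF20 against HFC (0.38), Mpa2l in HF20 against LFC (-0.34), Irf9 (-0.04) and Xaf1 (-0.13) in HF5 against LFC, Xaf1 in HFC against LFC at Weeks 3 to 18 (-0.25) and Iigp1 in HFC against LFC (-0.04), and with the mean of all probes for Iigp1 in the product of diet and day (0.04). The causes were not tested.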
